A study of Drosophila melanogaster with 18 samples.

Results

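Control S2R+ cells kept at 14 °C for 24 h were compared with control cells kept at 25 °C, the usual growth temperature of the line, on 3 arrays each, 6 of the 18 arrays of the series. S2R+ is an adherent cell line derived from Drosophila melanogaster embryos. All of these cells had received lacZ dsRNA, which has no target in the fly and serves as the control of RNA interference, 4 days before the temperature shift. The other arrays held lacZ RNAi cells at 30 °C and H2Av RNAi cells, depleted of the histone variant H2Av (gene His2Av), at 14, 25 and 30 °C. More cells were plated for the cool dishes, so that densities were comparable at harvest. The labels speak of replicate experiments without saying how independent the cultures were, so the p-values measure the spread between these arrays. Cy3-labelled cRNA from total RNA was hybridised to 1-colour Agilent arrays. A probe was a member where it was well above background, by the scanner software, on at least 2 of the 3 arrays of either lacZ group, which held for 20671 of 32162 non-control probes. Of these, 14005 carried a gene symbol, naming 9499 genes.

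Flies are ectotherms, so their cells take on the temperature of their surroundings and every reaction in them slows in the cool. Transcripts that increase in the cool are called CoolUp and those that decrease CoolDown. Cooling is known to slow proliferation of fly cells, to depolymerise microtubules and to stiffen membranes, and the small heat shock proteins are chaperones best known from the opposite stress, heat. All values below are log2 signals after quantile normalization of the 18 arrays, so that a difference of 1 is 2-fold, and every change is 14 minus 25 °C.

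One array stood apart before any comparison. The 3 arrays at 14 °C correlated with each other at r = 0.991 to 0.994 over the tested probes, and replicates 2 and 3 at 25 °C at r = 0.990, whereas replicate 1 at 25 °C correlated with those 2 at only 0.954 to 0.963. The median SD of a probe was 0.194 at 14 °C and 0.400 at 25 °C, and 0.199 over replicates 2 and 3 at 25 °C. On that array the median of 21 probes to transcripts of the mitochondrial genome was 13.62, against 15.77 to 16.26 on the other 5 arrays. Results are therefore given with and without lacZ 25 °C replicate 1. Each slide may have held arrays of 1 group only, in which case the slide and the temperature cannot be told apart. The targeted gene of the series, His2Av, was at 15.26, 15.53 and 15.79 at 14 °C and 15.04, 16.41 and 16.22 at 25 °C, and sqh, the myosin light chain, did not pass the test either (0.47, SE 0.44). Act5C, the cytoplasmic actin often used for normalization, differed by 0.22 (SE 0.31), and it and sqh lay below 0 without replicate 1 at 25 °C (-0.29 and -0.33).

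Cooling changed 2685 probes, 13.0% of those tested, at an adjusted p under 0.05 and at least 2-fold: 1219 were CoolUp, 5.90% of the tested probes, and 1466 were CoolDown, 7.09%. The median change over all tested probes was 0.02. Most of the changes were modest, with 74.6% of the CoolUp and 85.9% of the CoolDown probes under 4-fold. The 3 arrays at 14 °C did not overlap with the 3 at 25 °C for 1196 CoolUp and 1441 CoolDown probes, while 42.3% of all tested probes did not overlap. Without lacZ 25 °C replicate 1, 1836 probes passed (8.88%), of which 836 were CoolUp (4.04%) and 1000 CoolDown (4.84%). Of the original calls, 657 CoolUp probes (53.9%) and 903 CoolDown probes (61.6%) were also called without that array, and 477 and 782 were called whichever of the 6 arrays was left out. Without replicate 2 at 25 °C, which leaves replicates 1 and 3, 3911 probes were called.

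The H2Av RNAi cells, on 6 other arrays, gave a separate view of the same shift. Of the probes tested, 1479 passed (7.15%), and 804 (3.89%) were higher and 675 (3.27%) lower at 14 °C there. Among the CoolUp probes of control cells, 92.1% were also above 0 in H2Av RNAi cells, against 48.6% of all tested probes, with a median change of 1.53 in control and 0.74 in H2Av RNAi cells. Among the CoolDown probes, 93.0% were also below 0, against 51.4% of all tested probes, with medians of -1.41 and -0.80. These probes were chosen by their change in control cells, which favours large values there. The medians therefore do not compare the size of the response between the RNAi groups. Both shifts passed the test in 369 CoolUp probes, 30.3% of those of control cells and 45.9% of those of H2Av RNAi cells. For CoolDown probes the overlap was 417, or 28.4% and 61.8%. The opposite call in H2Av RNAi cells was made for 1 CoolUp and 3 CoolDown probes. The difference between the effects in the 2 RNAi groups passed the test for 2 probes (0.00968%), 1 in each direction (0.00484%), both without a gene symbol. Of the 20671 tested probes, 2502 reached an unadjusted p under 0.05 in limma, and with array quality weights 70 passed. The low count of passing probes therefore does not show that the responses were equal. For named genes that passed in one RNAi group only, the difference between the groups did not pass.

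**Figure D1:**
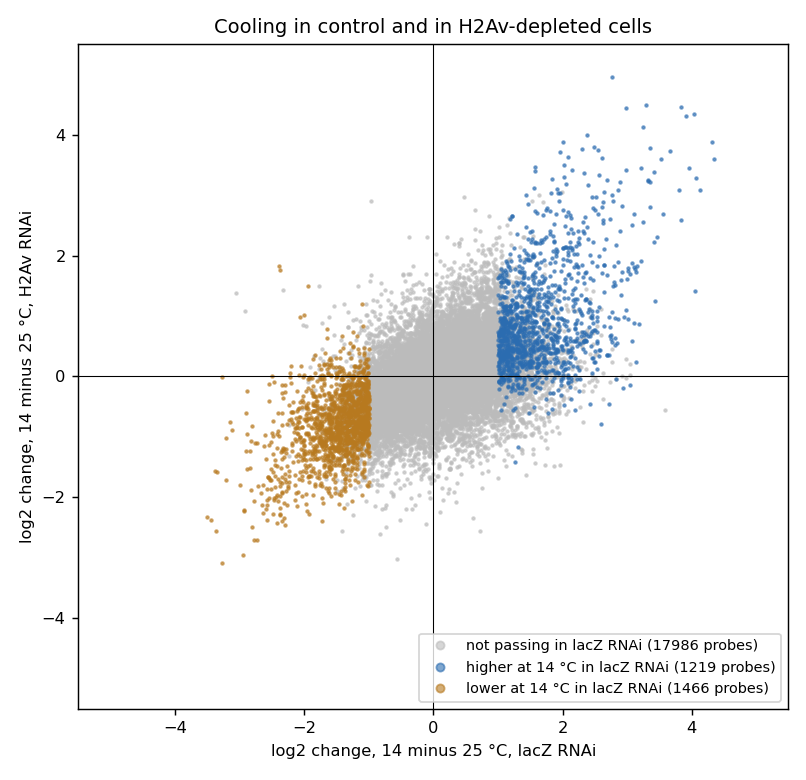
Change of each of the 20671 tested probes after cooling in lacZ RNAi cells (x axis) and in H2Av RNAi cells (y axis), both as log2 of 14 over 25 °C. CoolUp probes of control cells are blue (1219), CoolDown probes brown (1466) and the others grey. Most coloured points lie on the same side of 0 on both axes.

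Of the 15 genes with the largest increase, 13 also passed in H2Av RNAi cells. In 5 of them the probe was not well above background on any 25 °C array, so that only a bound can be given, and the others rose by 3.11 (shot) to 4.13 (CG13694) on the log2 scale. Collagen-type prolyl hydroxylases were among them. PH4alphaSG1, an alpha subunit of prolyl 4-hydroxylase, was detected by a pair of probes. One gave 10.25, 10.34 and 10.35 at 14 °C and 7.16, 6.0 and 6.05 at 25 °C, a change of 3.91 (SE 0.42, adjusted p = 4.98e-05). The other was not well above background on any 25 °C array, and was at least 15.1-fold higher at 14 °C (adjusted p = 2.66e-05). The related PH4alphaNE1 gave 7.32, 7.52 and 7.20 against 4.09, 3.47 and 3.93 (3.52, SE 0.35, adjusted p = 2.80e-05). In H2Av RNAi cells these genes changed by 4.31 (the first PH4alphaSG1 probe) and 3.60. PH4alphaNE1 was well above background on 2 of the 3 control arrays at 25 °C, and at 30 °C it averaged 2.65 in control cells.

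CG13694, a gene with no textbook function, was at 12.60, 13.15 and 13.18 at 14 °C and at 9.08, 8.72 and 8.75 at 25 °C. It rose by 4.13 (SE 0.25, adjusted p = 9.54e-07), and its mean at 30 °C was 5.97. Tat, tyrosine aminotransferase, the first enzyme of tyrosine breakdown, was at 9.62, 9.92 and 9.90 against 7.05, 5.98 and 6.36 (3.35, SE 0.30). The carboxylesterase gene alpha-Est8 was at 9.59, 9.18 and 9.92 against 7.2, 5.73 and 5.8 (3.32, SE 0.53). The 3 genes were chosen from changes without overlap between 14 and 25 °C, so their non-overlap was fixed by that choice. In all 3 genes replicate 1 was the highest of the 25 °C arrays. insc, whose protein orients the spindle in dividing neuroblasts, rose by 3.25 (SE 0.39), from 5.28, 7.35 and 6.82 to 9.66, 9.66 and 9.89.

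Other large increases started from a level not well above background. Besides PH4alphaSG1, this applied to CG8813 (at least 13.2-fold higher), the accessory gland protein gene Acp53C14b (at least 12.7-fold), CG2964 (at least 8.0-fold) and CG2812 (at least 5.64-fold), with adjusted p-values of 1.48e-05, 2.80e-05, 5.37e-04 and 1.40e-05. A bound takes the mean of the cool arrays against the lowest signal that was well above background on each 25 °C array, or the probe's own signal where that was higher. CG31140, CG15043 and radish (rsh), a gene of olfactory memory, changed by 3.84, 3.42 and 3.32. At 25 °C they were well above background on only 1, 2 and 1 of the 3 arrays, so these sizes rest partly on background signals. Of the 15, only Hipk lost its call without lacZ 25 °C replicate 1. Hipk, a protein kinase, was at 14.31, 13.75 and 14.65 at 14 °C and at 9.07, 12.57 and 11.64 at 25 °C, so that its change of 3.14 (adjusted p = 0.0498) became 2.13 (adjusted p = 0.207), and it was 0.23 in H2Av RNAi cells. shot, a spectraplakin that links actin to microtubules, was at 13.05, 12.79 and 13.65 against 9.29, 10.83 and 10.03. Its change was 3.11, or 2.73 without that array (adjusted p = 0.0366), and in H2Av RNAi cells it was 0.88 (adjusted p = 0.499). In control cells Hipk and shot averaged 13.45 and 11.37 at 30 °C, against 11.09 and 10.05 at 25 °C.

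**Figure D2:**
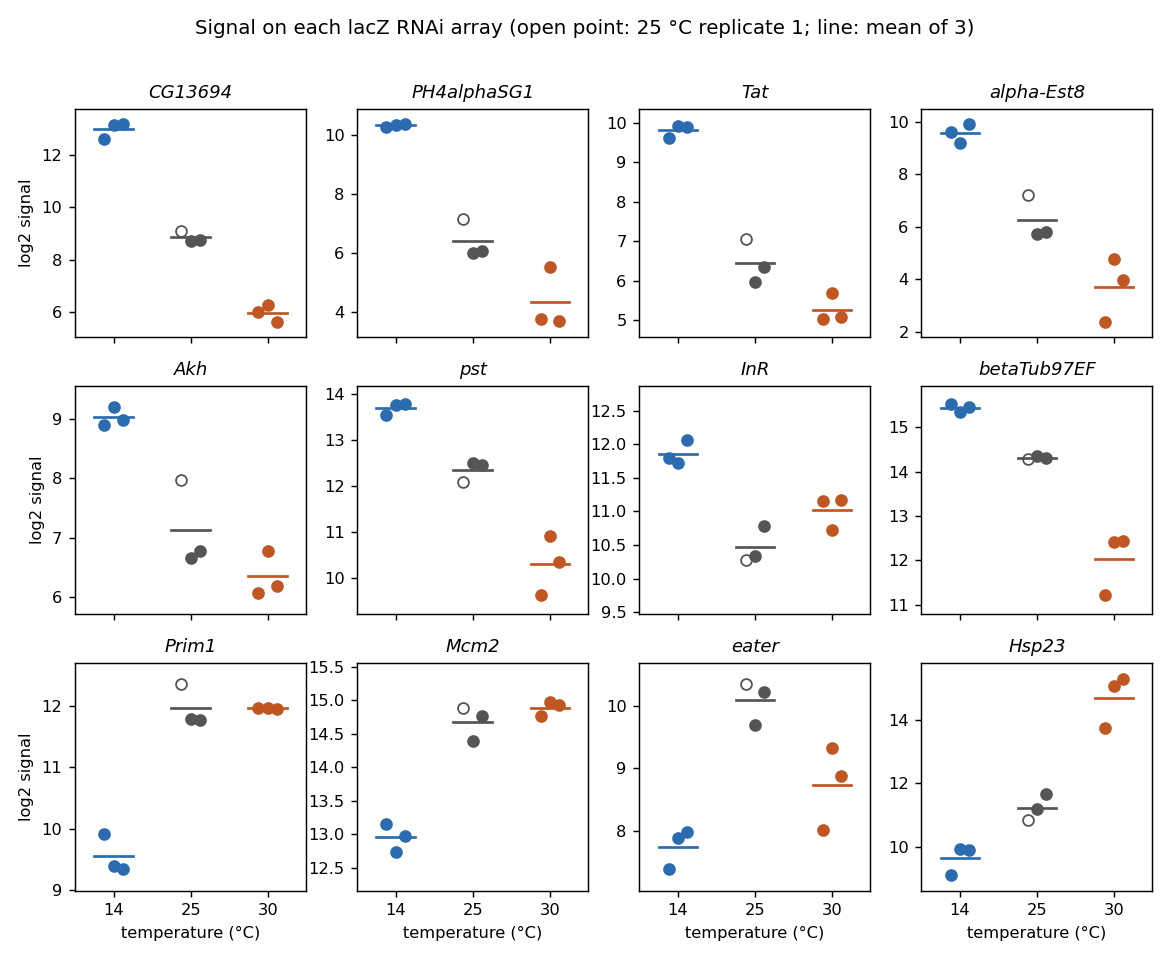
log2 signal (y axis) of 12 genes on each lacZ RNAi array at 14, 25 and 30 °C (x axis), with a line at each mean of 3 arrays and an open point for 25 °C replicate 1. In the first 8 genes all points at 14 °C lie above all points at 25 °C, and in the last 4, from Prim1 to Hsp23, all lie below.

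Of the 15 genes with the largest decrease, 4 were not well above background on any 14 °C array and are given as bounds, and the others fell by 2.89 (CG6652) to 3.51 (CG3698) on the log2 scale. All 15 kept the call without lacZ 25 °C replicate 1, and 9 also passed in H2Av RNAi cells. Only 4 of them were above background on all 3 arrays at 14 °C. CG16736 was at 4.51, 4.16 and 4.17 at 14 °C against 8.54, 6.79 and 7.34 at 25 °C (-3.27, SE 0.38), CG18249 at 6.33, 5.91 and 6.30 against 10.33, 8.67 and 9.16 (-3.21, SE 0.44), and CG6790 at 5.16, 5.70 and 5.67 against 8.23, 8.01 and 9.14 (-2.95, SE 0.35). stops, which acts in ending the photoreceptor response, was at 4.20, 3.64 and 4.25 against 8.04, 6.64 and 7.03 (-3.21, SE 0.38). Except in CG6790, replicate 1 was the highest of the 25 °C arrays in these genes.

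The homeobox gene tinman (tin), needed for heart formation, was at 4.01, 3.78 and 3.51 against 8.01, 5.91 and 6.74 (-3.12, adjusted p = 2.37e-04), and speck, which encodes an arylalkylamine N-acetyltransferase, was at 3.86, 3.09 and 4.28 against 8.56, 5.6 and 7.21 (-3.38, adjusted p = 9.77e-04). Where a probe was not well above background on any cool array, only a bound can be given: Lcp9, a larval cuticle protein gene, was at least 6.42-fold lower, CG31296 at least 6.08-fold, tincar (tinc) at least 6.04-fold and the reticulon gene Rtnl2 at least 5.34-fold, with adjusted p-values of 1.29e-04, 0.00370, 3.06e-04 and 0.00647. CG3698 (-3.51), CG30099 (-3.37), CG11843 (-3.28), CG12693 (-2.93) and CG6652 (-2.89) were above background on 1 or 2 of the cool arrays. CG11843 and CG6652 changed by -0.01 and -0.24 in H2Av RNAi cells, but the difference between the RNAi groups did not pass the test.

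Among genes with a mean signal of at least 12 log2 units in both groups, a subset chosen after the values were seen, 10 per direction were taken by size of change from those called with and without lacZ 25 °C replicate 1. On the CoolDown side, msd5 and dgt4, subunits of the augmin complex that nucleates microtubules within the spindle, were at 12.52, 12.05 and 12.07 against 14.74, 13.80 and 13.91 (-1.94, SE 0.25) and at 14.19, 13.81 and 13.74 against 16.28, 15.53 and 15.45 (-1.84, SE 0.19). The other measured augmin genes did not pass, with differences of -0.83 in msd1, -0.54 in wac, -0.26 in dgt2, -0.09 in dgt3, -0.04 in dgt5 and 0.08 in dgt6. Chrac-14 (-1.79) and PolE4 (-1.57) encode histone-fold subunits, the first of a chromatin remodeller and the second of DNA polymerase epsilon, and verrocchio (ver, -1.57) protects telomeres. P5cr, which makes proline from pyrroline carboxylate, fell by 1.57, and the peroxiredoxin gene Prx6c and CG12896 changed by -1.55 and -1.86.

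On the CoolUp side of that subset, the largest change was in waclaw (wcy, 2.11, SE 0.53). alphabet (alph), a PP2C-type phosphatase, was at 16.04, 15.94 and 16.01 against 13.48, 14.59 and 14.00 (1.97, SE 0.45), and the RNA-binding protein gene musashi (msi) was at 14.23, 14.32 and 14.59 against 12.41, 12.71 and 12.46 (1.85, SE 0.32). Orct2, an organic cation transporter gene, was at 16.88, 16.27 and 16.66 against 15.22, 15.15 and 14.83 (1.54, SE 0.23). chaski (chk), a monocarboxylate transporter gene, rose by 1.68, peste (pes), a CD36-type scavenger receptor gene, by 1.59, the chromatin kinase gene Tlk by 1.52 and the ubiquitin protease gene Usp2 by 1.5. Of the 10, 2 also passed in H2Av RNAi cells, Orct2 (1.14) and trol (1.11), whereas alph changed by 0.15 there and Usp2 by -0.05. In control cells at 30 °C wcy, alph, msi and Tlk averaged 12.99, 15.19, 13.48 and 14.70, against 12.05, 14.02, 12.53 and 13.50 at 25 °C. Usp2, bel, pes and chk also averaged higher at 30 than at 25 °C, whereas Orct2 and trol averaged lower (13.70 and 11.73). The level of these genes thus did not always fall with warmth.

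For gene lists, each gene was represented by its probe with the highest mean signal. Over all 9499 genes so represented, with quantile normalization, 3.62% were CoolUp and 8.45% CoolDown, with a median change of -0.13, and without lacZ 25 °C replicate 1 the shares were 2.88% and 5.57%. In H2Av RNAi cells 3.92% of these genes were higher and 3.27% lower. The counts of every list below are to be read against these shares. The balance depended on the scaling: with each array scaled to its 75th percentile, 776 of the 9499 genes were CoolUp and 522 CoolDown in control cells, with a median of 0.01, and DNA replication genes then had 1 and 22 calls. DNA replication genes stood at 1 CoolUp and 21 CoolDown of 44 measured (47.7% CoolDown), with a median of -0.97. Changes below 0 were found in 41 of the 44. Without lacZ 25 °C replicate 1, 17 were CoolDown and none CoolUp, with a median of -0.90, and in H2Av RNAi cells 20 were lower with a median of -0.94.

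The replicative helicase is built from the MCM ring, Cdc45 and GINS. Mcm2 was at 13.16, 12.74 and 12.97 at 14 °C and at 14.88, 14.39 and 14.76 at 25 °C (-1.72, SE 0.17, adjusted p = 2.66e-05). The other ring subunits changed by -1.29 (Mcm3), -1.57 (dpa, the fly Mcm4), -1.53 (Mcm5), -0.85 (Mcm6) and -1.5 (Mcm7), and each of these passed except Mcm6, whose dimmer probe did (-1.09). Of the GINS genes, Sld5 was at 12.31, 11.73 and 11.72 against 14.67, 13.54 and 13.67 (-2.04) and Psf1 fell by 1.5, while Psf2 (-0.71) and Psf3 (-0.45) did not reach 2-fold. Cdc45 changed by -0.62.

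The largest decrease of the list was in Prim1, the catalytic subunit of primase, which starts each new strand with RNA. It was at 9.92, 9.39 and 9.34 against 12.35, 11.79 and 11.77 (-2.42, SE 0.21, adjusted p = 1.12e-05), with no overlap between the groups. In H2Av RNAi cells it changed by -0.96 (adjusted p = 0.00708). PolA2 (-1.61) and PolA1 (-1.30) of the same complex also fell, and Prim2 was at -0.98. Among origin recognition genes, Orc6 was at 10.63, 9.82 and 10.20 against 13.02, 12.13 and 12.35 (-2.28, SE 0.25), Orc2 and Orc4 fell by 1.24 and 1.09, and Orc1 and Orc5 did not pass (-0.70 and -0.73), although the dimmer Orc5 probe did (-1.62). The polymerase epsilon gene PolE1 fell by 1.36, the sliding clamp gene PCNA by 1.15, the ligase gene DNAlig1 by 1.34, and both ribonucleotide reductase genes, RnrL and RnrS, by 1.06 and 1.26. Orc2, Orc4, PCNA, RnrL and RfC38 dropped under 2-fold without lacZ 25 °C replicate 1 (-0.98, -0.97, -0.74, -0.90 and -0.87). CycE, the cyclin that starts S phase, passed only then (-0.67 with all arrays). Cdc6 (-1.02) and Mcm10 (-1.13) were the other CoolDown members.

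E2f1, the transcription factor that drives S phase genes, was at 16, 15.96 and 16.21 against 15.58, 15.90 and 15.73 (0.32, adjusted p = 0.198), its partner Dp differed by -0.04, and Cdc7, the kinase that fires origins, by 0.02. chiffon (chif), which activates Cdc7, was the one CoolUp member, at 13.35, 12.72 and 13.95 against 11.74, 11.79 and 11.78 (1.58, adjusted p = 0.0477). That call was lost without lacZ 25 °C replicate 1 (1.56, adjusted p = 0.107). At 30 °C Mcm2 and Prim1 averaged 14.89 and 11.96, beside means of 14.68 and 11.97 at 25 °C.

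**Figure D3:**
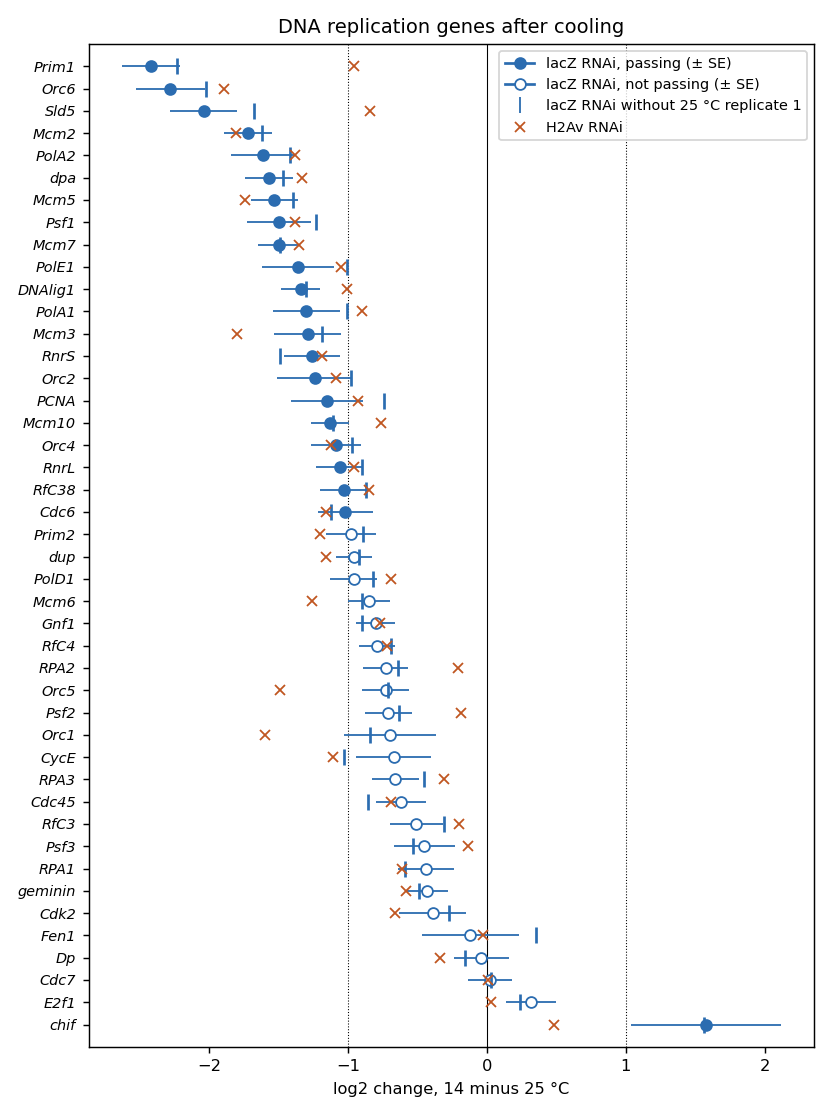
log2 change (x axis) of the 44 measured DNA replication genes, 1 per row. Circles with SE bars show lacZ RNAi cells, filled where the test was passed, vertical ticks the same without lacZ 25 °C replicate 1, and crosses H2Av RNAi cells. Dotted lines mark 2-fold. From Prim1 (-2.42) to Cdc6 (-1.02) 21 genes were CoolDown, and chif was CoolUp.

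Of 49 mitosis genes, 5 were CoolDown (10.2%, against 8.45% of all genes) and 1 CoolUp (2.04%, against 3.62%). Their median was -0.33, against -0.13 over all genes, and without lacZ 25 °C replicate 1 the counts were 1 and 0. Of the 49, 5 were lower and none higher in H2Av RNAi cells, with a median of -0.38, against a median of -0.02 and the 3.27% lower over all genes. The centromeric histone gene cid kept its call (-1.51, or -1.34 without that array). The kinetochore genes Nuf2 (-1.16) and Ndc80 (-1.09), the condensin gene SMC2 (-1.10) and cort, a meiotic activator of the anaphase-promoting complex (-1.21), fell below 2-fold without it, as did the microtubule depolymerase gene Klp10A on the CoolUp side (1.02, then 0.64). The mitotic cyclin genes CycA and CycB changed by -0.17 and -0.12. Of 16 genes of DNA damage checkpoints and repair, okr (-1.23), the fly Rad54, and nbs (-1.0) were CoolDown (12.5%, against 8.45% of all genes). Both also passed in H2Av RNAi cells (-1.08 and -1.31). The list of 5 histone variant genes including the histone mRNA binder Slbp held no call (median -0.37).

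Insulin, TOR and Akh signalling genes included 5 CoolUp and no CoolDown member among 26 (19.2% CoolUp, against 3.62% of all genes). The study had already named Akh, InR and Mef2 as CoolUp in S2R+ cells, so this share is no independent measure of the pathway. Of the 26, Akh alone passed in H2Av RNAi cells, whereas InR (0.96), foxo (0.88), Sik3 (0.70) and Mef2 (0.57) stayed under 2-fold, Mef2 with an adjusted p of 0.62 and the others below 0.05. InR, the insulin receptor, was at 11.80, 11.72 and 12.07 at 14 °C and at 10.28, 10.34 and 10.78 at 25 °C (1.40, SE 0.24, adjusted p = 0.00103). All 5 InR probes lay above 0, from 0.98 to 2.76, and 3 of them passed. foxo, the transcription factor that insulin signalling holds out of the nucleus, was at 9.46, 9.86 and 9.75 against 8.12, 8.57 and 8.79 (1.19, adjusted p = 0.00208). Both genes kept their calls without lacZ 25 °C replicate 1 (1.30 and 1.01). Sik3, a kinase under insulin and Akh control, was at 13.29, 13.24 and 13.16 against 11.64, 11.85 and 12.03 (1.39, SE 0.18).

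Akh, the glucagon-like adipokinetic hormone that neurosecretory cells release to mobilise fat, was at 8.91, 9.21 and 8.98 against 7.98, 6.65 and 6.77 (1.90, SE 0.30, adjusted p = 6.24e-04). It also passed in H2Av RNAi cells (2.04), and at 30 °C in control cells it averaged 6.34. The last CoolUp member, Mef2, is best known as a muscle transcription factor. It was at 13, 12.91 and 13.12 against 9.18, 12.16 and 11.91 (1.92), and without the low array its change was 0.97 (adjusted p = 0.123). The cytoplasmic pathway members Akt (0.39), Pi3K92E (0.46), chico (0.37), Tsc1 (0.13), mTor (0.13) and Thor (-0.30) did not pass.

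pastrel (pst), a gene that limits virus infection in flies, was fixed for description together with the JAK/STAT pathway. It was at 13.55, 13.77 and 13.78 against 12.09, 12.50 and 12.47 (1.34, SE 0.24, adjusted p = 0.00167), and at 30 °C it averaged 10.31. Its other probes changed by 2.39 and 0.83, the latter without passing. The list held the pathway, pst itself and the ETS factor genes pnt, aop and Ets97D, proposed regulators of pst. Of its 12 genes, 4 were CoolUp (33.3%, against 3.62% of all genes) and none CoolDown. The study had already reported pst, Socs36E and upd3 as CoolUp in S2R+ cells. The share is therefore no independent measure of the pathway. Without lacZ 25 °C replicate 1 the counts were 2 and 0. None of the 12 passed in H2Av RNAi cells, where pst was at 0.81, Socs36E at 0.60, upd3 at 0.40 and Ptp61F at 0.17 (list median 0.11). The cytokine gene upd3 was at 8.41, 8.57 and 8.76 against 4.10, 7.70 and 6.90 (2.35, or 1.28 without the lowest array, adjusted p = 0.0232). The feedback inhibitors Socs36E (1.34) and Ptp61F (1.25) were CoolUp with all arrays and missed without that one (0.94 and 1.20, the latter at an adjusted p of 0.050). The receptor dome (-0.03), the kinase hop (0.28) and Stat92E (-0.36) did not pass.

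The list of sodium pump and cold tolerance genes held smp-30, known as a cold acclimation gene of flies, at 12.47, 12.61 and 12.62 against 11.53, 11.39 and 11.48 (1.10, SE 0.12, adjusted p = 5.29e-05). It rose in H2Av RNAi cells as well (1.62). The related regucalcin gene differed the other way (-1.01), a call that was lost without lacZ 25 °C replicate 1 (-0.68). With pst, the list counted 2 CoolUp and 1 CoolDown of 7, and the catalytic pump subunit Atpalpha was at -0.10.

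Of 29 lipid synthesis and desaturation genes, 3 were CoolUp (10.3%, against 3.62% of all genes) and none CoolDown (median 0.29). Desat1, the main delta-9 desaturase, was at 14.34, 14.26 and 14.19 against 15.08, 14.85 and 14.61, a difference of -0.58. FASN2, a fatty acid synthase gene, was at 6.51, 7.34 and 6.98 against 5.8, 5.59 and 5.12 (1.44) and also passed in H2Av RNAi cells (2.47). The acyl-CoA synthetase gene Acsl (1.15) and the phosphatidate phosphatase gene Lpin (1.42) lost their calls without lacZ 25 °C replicate 1 (0.98 and 1.25, the latter at an adjusted p of 0.110).

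Small heat shock protein genes had 2 CoolDown of 7 (28.6%, against 8.45% of all genes), with a median of -1.05. Hsp22, the mitochondrial small chaperone, was at 9.93, 11.39 and 11.31 against 11.60, 13.05 and 13.15 (-1.72, SE 0.55, adjusted p = 0.0353). Hsp23 was at 9.12, 9.93 and 9.89 against 10.84, 11.17 and 11.66 (-1.58, SE 0.44, adjusted p = 0.0210). Both kept their calls without lacZ 25 °C replicate 1 (-2.22 and -1.77) and passed in H2Av RNAi cells (-2.39 and -1.47). Hsp27 lay lower at 14 °C on all arrays (-1.05, adjusted p = 0.0948) and Hsp26 higher (0.42, adjusted p = 0.366), and neither passed. At 30 °C the means of Hsp22, Hsp23, Hsp26 and Hsp27 were 14.00, 14.69, 14.11 and 13.67. None of 9 inducible heat shock genes and Hsf was called (median 0.06), and Hsp70Aa was at 11.74, 12.42 and 12.82 against 12.01, 12.29 and 11.74. Constitutive chaperones (12 genes), the CCT chaperonin (8) and folding factors of the endoplasmic reticulum (23) also held no call.

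In metabolism and organelles, Gfat1, which makes the first committed step of the hexosamine pathway, was at 4.42, 5.38 and 5.70 against 7.34, 7.03 and 7.95 (-2.27, SE 0.60), the 1 CoolDown gene of 7 in that pathway. Of the peroxisome assembly genes, Pex6 (-1.87) and Pex2 (-1.72) were CoolDown, with and without lacZ 25 °C replicate 1. Pex2 was at 10.34, 9.85 and 10.02 against 12.52, 11.31 and 11.55, with replicate 1 the highest. Neither gene passed in H2Av RNAi cells. Nuclear genes of oxidative phosphorylation held 3 CoolDown of 73 (4.11%), COX7AL (-1.93), ATPsynepsilonL (-1.45) and COX7AL2 (-1.08). COX7AL and COX7AL2 were dim (means of 4.04 and 3.90 at 14 °C). In H2Av RNAi cells COX7AL passed (-1.65), and COX7AL2 lay above 0 (0.47). The list had 0 CoolDown and 2 CoolUp with 75th percentile scaling, and 1 CoolDown with normexp background correction or the deposited matrix. The mitochondrial ribosome held 1 CoolDown of 70 (1.43%, mRpS11, -1.10). The shares of both lists lay below the 8.45% of all genes. Small decreases were nonetheless common in the mitochondrial ribosome, where 63 of the 70 genes lay below 0, against 5653 of 9499 over all genes. Its median was -0.32, against -0.13 over all genes. That median was -0.20 without lacZ 25 °C replicate 1 and 0.15 in H2Av RNAi cells. kdn, citrate synthase, was the 1 CoolUp gene of 17 in the tricarboxylic acid cycle (1.11, or adjusted p = 0.0937 without lacZ 25 °C replicate 1). It averaged 15.08 at 30 °C in control cells, against 13.97 at 25 °C. Of 26 V-type ATPase genes, Vha68-2 was CoolUp (1.07) and Vha16-5 (-1.42) and Vha16-3 (at least 2.30-fold lower) CoolDown, with only Vha16-5 kept without lacZ 25 °C replicate 1 (-1.06). Both CoolDown probes were dim, and in H2Av RNAi cells they lay above 0 without passing (0.67 and 1.82). With 75th percentile scaling, normexp background correction or the deposited matrix, no V-type ATPase gene was CoolDown.

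Other large machines showed little change. None of 91 cytoplasmic ribosomal protein genes was called (median 0.01), nor any of 13 glycolysis, 12 mitochondrial fatty acid oxidation, 21 autophagy or 9 circadian clock genes. The median of the ribosomal protein genes was 0.54 after scaling to the 75th percentile instead of quantile normalization, again with no call. Of 36 proteasome genes, Prosbeta3 was CoolUp (1.01, then 0.78 without lacZ 25 °C replicate 1), and of 13 apoptosis genes Debcl (1.02, then 0.84). The ribosome biogenesis list had 1 CoolUp of 17, the RNA helicase gene bel (1.79), whose best known roles lie in translation, and 3 without that array. The 11 measured transcripts of the mitochondrial genome had no call and a median of 0.41, which was -0.06 without lacZ 25 °C replicate 1.

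In the cytoskeleton, betaTub97EF, a beta-tubulin isotype, was at 15.52, 15.34 and 15.46 against 14.29, 14.34 and 14.30, and at 30 °C it averaged 12.02. It was the 1 CoolUp gene of 9 tubulins (1.13, SE 0.34, adjusted p = 0.0301). Without lacZ 25 °C replicate 1 the change was 1.12 at an adjusted p of 0.0712, and in H2Av RNAi cells it passed (1.10). The maternal alpha-tubulin gene alphaTub67C, at 0.88 with all arrays (adjusted p = 0.0636), passed without that array (adjusted p = 0.0439) and in H2Av RNAi cells (1.28). Of 30 actin and myosin genes, spir (-1.43), an actin nucleator, and Act87E (-1.18) were CoolDown. The basement membrane gene trol and the integrin activator Fit1 (1.08) were CoolUp among 24 adhesion genes. Among 19 splicing factors the hnRNP genes sqd (1.43) and Hrb27C (1.22) were CoolUp, with adjusted p-values of 0.0549 and 0.116 without lacZ 25 °C replicate 1 and changes of -0.21 and 0.05 in H2Av RNAi cells. At 30 °C in control cells sqd and Hrb27C averaged 16.09 and 16.53, against 15.22 and 15.66 at 25 °C. In cleavage and polyadenylation, Cpsf73 was the 1 CoolDown gene of 15 (-1.02, then -0.90).

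S2R+ cells are blood cell-like, and 17 of 20 blood cell identity genes were measured, all 17 above background on every 25 °C array. Of the 17, 2 were CoolDown (11.8%, against 8.45% of all genes) and none CoolUp. The median was -0.31, or -0.14 without lacZ 25 °C replicate 1, and 10 of the 17 lay below 0. Summed on the linear scale and given as log2, they ran from 17.32 to 17.39 at 14 °C. At 25 °C the sums ran from 17.28 to 17.77, so the groups overlapped. Such a sum is carried by bright genes such as crq (mean 15.69 at 14 °C), and dim ones such as eater hardly enter it. eater, a phagocytosis receptor, was at 7.38, 7.88 and 7.97 against 10.35, 9.70 and 10.23 (-2.35, SE 0.40, adjusted p = 0.00113), with a similar change in H2Av RNAi cells (-1.93). Hml, a clotting factor gene, was at 5.25, 5.91 and 6.19 against 7.80, 6.52 and 7.34 (-1.44), and was not called without lacZ 25 °C replicate 1 (-1.14, adjusted p = 0.0921). The GATA factor gene srp differed by 0.29 and the scavenger receptor gene crq by -0.11. PPO2 and peb lay above 0 without passing (0.60 and 0.71), and PPO2 passed in H2Av RNAi cells (1.27). Of 32 Toll and Imd genes, the antimicrobial peptide gene CecA1 (10.28, 11.22 and 9.99 against 8.89, 8.85 and 9.07) and PGRP-LB (1.15) were CoolUp (6.25%, against 3.62% of all genes). PGRP-LB missed without lacZ 25 °C replicate 1 (0.87).

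Markers of other cell types were summed on the linear scale and given as log2. At 14 °C and 25 °C the sums ranged over 12.12 to 12.63 and 12.29 to 12.53 for 9 muscle and mesoderm genes, 13.85 to 14.09 and 13.97 to 14.15 for 8 germline genes, 8.20 to 8.51 and 8.16 to 8.96 for 5 fat body genes, and 14.56 to 15.07 and 14.64 to 15.03 for 7 epithelial genes. The groups overlapped in all 4 lists. For 7 neuron and glia genes they did not, at 13.62 to 13.84 and 12.69 to 13.41, with lacZ 25 °C replicate 1 the lowest. These sums too are carried by the brightest genes of each list, so they do not describe its dim members. Single calls were made for Mlc2 (1.71) and wupA (-1.22) among muscle genes, futsch (2.98) and brp (-1.25) among neuronal genes, and bgcn (-1.73) and piwi (-1.19) among germline genes, and only Mlc2 and bgcn were called without that array. Part of a change in bulk RNA can lie in the number of cells of a kind or in the RNA per cell, which cannot be told apart here.

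Several probes of 1 gene did not always move together. Of 3051 genes with more than 1 tested probe, 652 had at least 1 call. In 136 of them (20.9%) every probe was called the same way, in 36 upward and in 100 downward, and in 267 another probe lay within 0.5 of no change. In ewg, chosen after its values were seen, a transcription factor gene, 2 probes gave 9.52, 10.20 and 9.74 against 7.37, 7.36 and 7.99 (2.25) and 9.52, 9.85 and 9.76 against 7.10, 7.26 and 7.14 (2.55), while the third gave 9.50, 9.39 and 9.56 against 10.22, 9.68 and 9.62 (-0.36). The H2Av RNAi arrays gave 2.29, 2.68 and -0.07 for the same probes. In the importin gene Kap-alpha3, 1 of 4 probes passed, with 1.68 and with 2.22 in H2Av RNAi cells, and the brightest differed by 0.19. Of 6 probes to CG31140, 4 passed with 2.22 to 3.84, and the 2 brightest differed by -0.11 and -0.12. The same 4 passed in H2Av RNAi cells, with 2.03 to 2.89.

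In 8 genes, probes were called in both directions: CG42335, Cdep, Svil, bt, cdi, cnc, l(3)80Fg and trol. Of the 21 called probes in these genes, 20 had the same sign in H2Av RNAi cells, but only Svil and trol were called both ways without lacZ 25 °C replicate 1. Svil, the fly supervillin, a regulator of the actin cortex, had 8 tested probes, of which 3 rose (1.65, 1.83 and 1.83) and 2 fell (-1.60 and -1.09). The probe at -1.60 was at 8.06, 8.37 and 8.42 against 10.18, 9.71 and 9.76, and the probe at 1.65 at 10.83, 11.06 and 11.89 against 9.33, 9.53 and 9.97. trol, the fly perlecan, a large basement membrane proteoglycan, had 3 CoolUp probes (1.97, 2.23 and 2.91) and 1 CoolDown probe (-1.36, 6.56, 6.12 and 6.39 against 8.03, 7.58 and 7.56) among 6. In H2Av RNAi cells these 4 trol probes changed by 1.11, 1.28, 1.35 and -1.54. Which transcripts each probe detects was not analysed here.

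**Figure D4:**
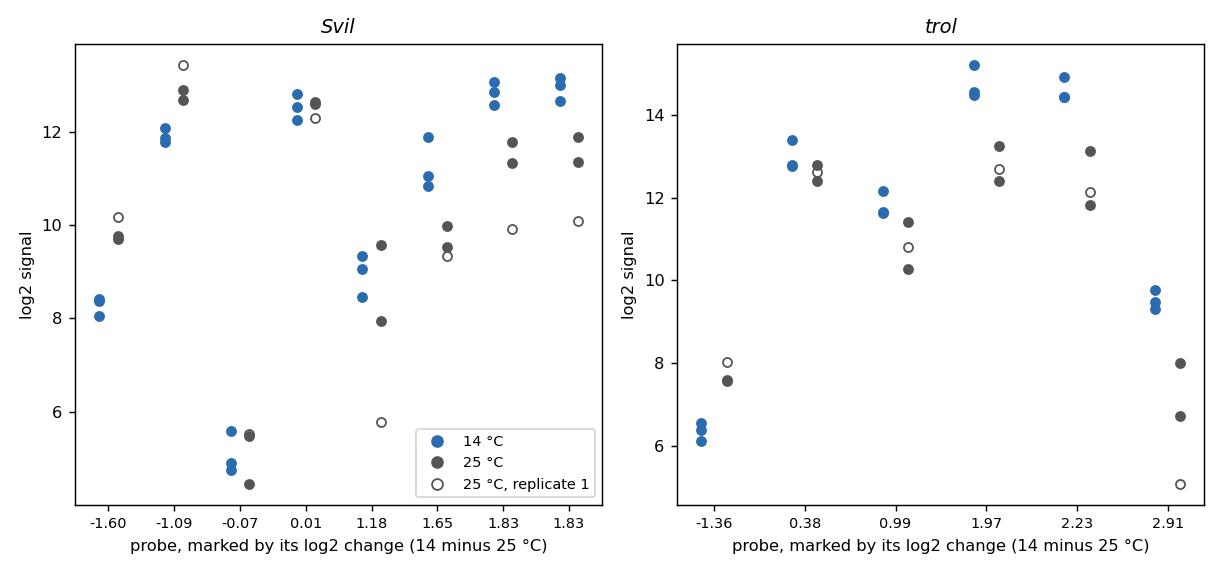
log2 signal (y axis) of every tested probe of Svil (8 probes) and trol (6 probes) on the lacZ RNAi arrays at 14 °C (blue) and 25 °C (grey, open for replicate 1). Probes are ordered along the x axis by their log2 change, which labels them, from -1.60 to 1.83 and from -1.36 to 2.91.

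The share of calls differed with gene length, taken as the genomic span in RefSeq. All 14005 probes with a symbol had a length, and they were divided into 5 groups of equal size. The share CoolUp was 2.61% among the shortest genes (up to 1441 bp) and 11.5% among the longest (from 11442 bp), and the share CoolDown was 10.7% and 4.75%. The median change ran from -0.25 to 0.32. Without lacZ 25 °C replicate 1 the CoolUp shares were 2.89% and 6.10%, the CoolDown shares 6.64% and 3.25%, and the medians -0.13 and 0.23. In H2Av RNAi cells 4.64% of probes to the shortest and 4.03% of those to the longest genes were higher, 3.11% and 2.53% were lower, and both medians were 0.02. Replicate 1 at 25 °C itself lay above the mean of replicates 2 and 3 by a median of 0.43 in the shortest genes, and the same difference was -0.16 in the longest. A symbol was carried by 55.9% of CoolUp and 73.0% of CoolDown probes, against 67.8% of all tested.

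**Figure D5:**
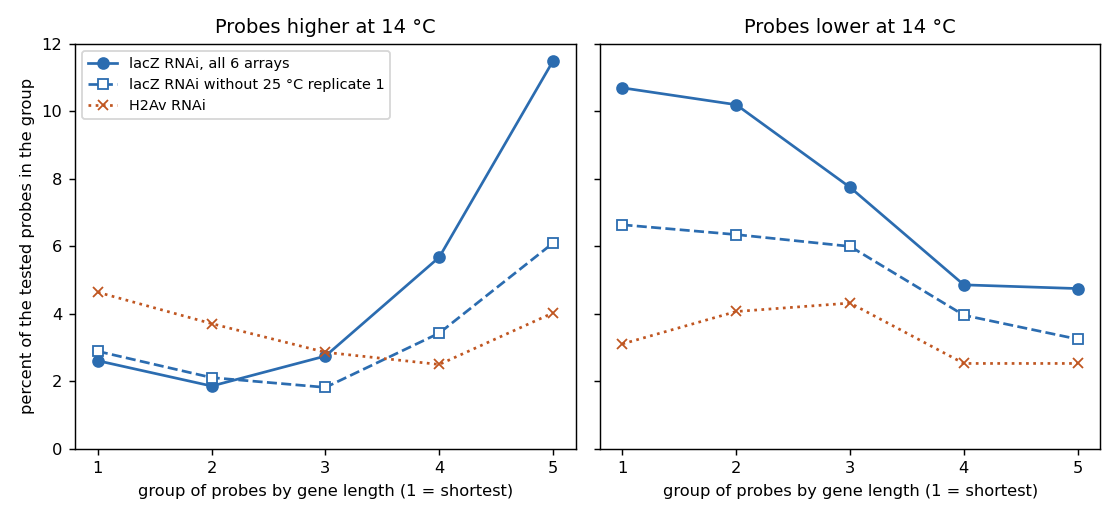
Percent of the tested probes that were CoolUp (left) and CoolDown (right) in each of 5 groups by gene length (x axis, 1 is the shortest), in lacZ RNAi cells with all 6 arrays, without 25 °C replicate 1, and in H2Av RNAi cells. With all 6 arrays the CoolUp share ends at 11.5% in the longest genes, and without that array at 6.10%.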

How the data were processed

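Total RNA of S2R+ cells was hybridised as Cy3-labelled cRNA, and the deposited files hold the processed signal intensity of each spot from Agilent Feature Extraction, with background flags. A deposited matrix of the authors holds log2 values, quantile-normalized per the study's methods. Its row numbers did not match spot numbers throughout, so it was matched by the order of non-control spots.

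Of 45020 spots, 1417 controls were left out, and the other 43603 were log2-transformed and quantile-normalized over 18 arrays. Outlier spots were dropped and spots of a probe averaged by the median. The 4 tested probes with a missing array kept their other arrays. A model with 6 group means was fitted with limma 3.58.1 (R 4.3.3) and p-values were adjusted by Benjamini-Hochberg over all tested probes. The number of arrays limits the precision. Symbols came from RefSeq through the CG number, without coordinates.

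Named genes were the 15 largest non-overlapping changes per direction, up to 4 called members per list and direction, and fixed genes. Of these, 1 gene is not reported here. Members and lists were chosen with earlier results of these data known, and pes was later taken out of the ribosome biogenesis list because its symbol is that of peste. Alternatives covered scaling, background, filters, thresholds, replicate block, weights and left-out arrays. The fit was tested on simulated data.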

Additional observations from a re-analysis of the deposited data

Results flagged for a closer look

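The test of the difference between the effects of cooling in H2Av and in lacZ RNAi cells passed for 2 probes, 0.00968% of those tested, neither with a gene symbol. Both had groups of arrays at the floor of the measurement, so the fitted differences below rest on signals that were not well above background and are no measure of size. For probe A_09_P090935 the fitted effect in H2Av minus that in lacZ RNAi cells was 4.14 (adjusted p = 4.51e-04). In lacZ RNAi cells it gave 1.88, 1.62 and 1.59 at 14 °C, where no array was well above background, and 4.41, 4.07 and 3.74 at 25 °C, where 2 were, so that it was at least 2.45-fold lower at 14 °C. In H2Av RNAi cells its means were 3.44 and 1.68, the second below the lowest signal well above background on each array of that group (2.66 to 2.81). For probe A_09_P167505 the fitted difference was -2.50 (adjusted p = 0.0447). In lacZ RNAi cells it gave 4.34, 4.10 and 3.85 at 14 °C, where 2 arrays were well above background, and 1.62, 1.63 and 2.66 at 25 °C, where none was, so that it was at least 2.48-fold higher at 14 °C. Its means of 1.62 and 1.99 in H2Av RNAi cells lay below that lowest signal on each of their arrays (2.57 to 3.08).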

How the results depend on the processing

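In lacZ RNAi cells the count of 2685 calls became 1500 (777 CoolUp, 723 CoolDown) with normexp, 1688 with the deposited matrix, 4835 with no fold limit and 1515 at an adjusted p under 0.01. When arrays were scaled to their 75th percentile, the median change over all probes was 0.29 instead of 0.02, with 2629 CoolUp and 855 CoolDown calls. The corresponding counts in H2Av RNAi cells, 1479 by default, were 680, 785, 2821 and 887. Leaving out 1 array each gave 1836 to 3911 in lacZ and 1086 to 1346 in H2Av RNAi cells. The 2 probes that differed between RNAi groups became 0 with normexp, 0 with the deposited matrix and 0 with a filter on all 3 arrays (limma, with 2827, 2774 and 2422 probes at an unadjusted p under 0.05). They became 1 with 75th percentile scaling, with the compared arrays only, with an adjusted p under 0.01, with the replicate block and with a trended robust spread, 7 with no filter and 70 with array quality weights, and 1 to 4 without 1 array.

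Same-numbered lacZ arrays at 14 and 25 °C deviated together with r = 0.22, 0.06 and 0.11, so the numbers were not taken as pairs. The replicate block gave 2824 calls in lacZ and 1581 in H2Av RNAi cells. DNA replication genes had 19 to 22 CoolDown members and a median of -0.94 to -1.0 over the 5 scalings. Among single named genes, Act5C (-0.24) and sqh (-0.21) lay below 0 with array quality weights, and likewise without lacZ 25 °C replicate 1 (-0.29 and -0.33), their values over the left-out arrays running up to 0.55 and 0.87. In 275 of the tests of named genes under the alternatives a call was lost, in 1 gained, and in 1640 neither. Signals near background limit some of the calls: no 25 °C array was above background for 162 CoolUp probes and no 14 °C array for 105 CoolDown probes.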
